A study of Mus musculus with 4 samples.

Results

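The genes described here encode the aminoacyl-tRNA synthetases of mouse embryonic stem cells, the enzymes that join each amino acid to its transfer RNA. They were picked by gene name, with no measured value used: the 1-letter amino acid prefix followed by "ars", Eprs, Farsa, Farsb and Tarsl2. The rule found 38 of the 22266 genes in the table, of which 21 form the cytosolic group and 17, with names ending in 2, the mitochondrial group; Tarsl2, whose name also ends in 2, was placed in the cytosolic group. The table gives TPM (transcripts per 1000000), and all 38 reached the minimum average of 1 and are among the 12029 genes tested. TPM is a share of transcripts corrected for transcript length, so levels can be compared between genes.

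The female line PGK12.1, kept in serum with leukemia inhibitory factor, carried floxed Cbx2 with a HaloTag in all 4 libraries. The EtOH group (n = 2) is the ethanol control at day 0, labelled wild type. The OHT group (n = 2) is labelled knockout and was harvested at day 2, after 48 hours in 1.0 µM 4-hydroxytamoxifen (4-OHT). No group has 4-OHT with Cbx2 intact, so loss of Cbx2, the drug and culture time cannot be told apart. The labels name neither the recombinase nor the number of clones, and do not state that replicates are separate cultures. P-values therefore describe the spread between these libraries, which may be technical. Cbx2, a chromodomain gene of Polycomb repressive complex 1, stood at 2.29 and 2.71 TPM with EtOH against 0.749 and 1.14 TPM with OHT.

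Synthetases fall into class I and class II by the fold of the catalytic domain. In the cytosol 8 of them sit with scaffold proteins in a multi-synthetase complex, whereas mitochondria import a separate nuclear-encoded set that charges the transfer RNAs of the mitochondrial genome. Gars and Kars each encode both a cytosolic and a mitochondrial enzyme, and mitochondria make glutaminyl-tRNA by amidation. Many cytosolic synthetase genes are known targets of ATF4, the transcription factor of the amino acid response, which binds C/EBP-ATF response elements. That textbook set is taken here as Aars, Cars, Eprs, Gars, Iars, Lars, Mars1, Nars, Sars, Tars, Vars, Wars and Yars. The other 8 cytosolic genes are Dars, Farsa, Farsb, Hars, Kars, Qars, Rars and Tarsl2.

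The promoters of 28 members are in the RefSeq promoter table (GRCm38.p6), each as 300 bases from 250 before to 50 after a start site. They were searched on both strands for TGATGNAAN, the response element, and for TTGCATCA, its strong form, whose matches lie within those of the first motif. The first was found in 5 of the 28 members (17.9%) and in 3.95% of all 32851 windows, and the second in 4 members (14.3%) and 0.895% of windows. All 5 members, Aars, Gars, Iars, Tars and Yars, are of the ATF4 set. The 69-base windows around the matches are shown because these genes sit mostly among the higher members below. Capitals mark the match to TGATGNAAN or to its reverse complement.
Aars, first base at -113, chr8:111033699-111033767, plus strand: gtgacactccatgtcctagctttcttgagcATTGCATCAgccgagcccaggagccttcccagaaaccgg
Aars, first base at 9, chr8:111033820-111033888, plus strand: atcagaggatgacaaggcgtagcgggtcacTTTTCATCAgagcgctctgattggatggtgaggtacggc
Gars, first base at -31, chr6:55037940-55038008, plus strand: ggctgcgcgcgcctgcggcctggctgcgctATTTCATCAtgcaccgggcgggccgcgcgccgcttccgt
Iars, first base at 7, chr13:49682106-49682174, plus strand: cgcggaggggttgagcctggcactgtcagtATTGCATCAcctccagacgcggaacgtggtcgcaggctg
Tars, first base at -16, chr15:11399636-11399704, minus strand: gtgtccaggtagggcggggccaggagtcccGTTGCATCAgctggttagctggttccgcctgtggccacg
Yars, first base at 4, chr4:129189876-129189944, plus strand: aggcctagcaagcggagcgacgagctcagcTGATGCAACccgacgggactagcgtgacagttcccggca
Positions count from the start site in the RefSeq table. In Yars the element reads in the direction of the gene, and in the others it reads in the opposite direction.

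For contrast, the window of Sars, the cytosolic gene with the highest fold change, holds neither motif. It spans chr3:108445210-108445509 on the minus strand and is printed whole.
Sars: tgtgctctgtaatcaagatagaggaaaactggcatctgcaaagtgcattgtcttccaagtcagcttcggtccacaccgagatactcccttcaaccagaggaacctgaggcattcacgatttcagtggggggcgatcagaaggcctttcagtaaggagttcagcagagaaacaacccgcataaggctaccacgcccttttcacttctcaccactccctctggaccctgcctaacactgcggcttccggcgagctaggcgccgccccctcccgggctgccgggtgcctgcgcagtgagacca
The absence of a match says only that these letters are not in this window.

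Cytosolic synthetases were far more abundant than mitochondrial ones. The highest averages over the 4 libraries were those of Gars (409 TPM), Kars (384 TPM) and Nars (353 TPM), and the lowest in the cytosolic group was that of Tarsl2, a second threonyl-tRNA synthetase gene, at 10.4 TPM. The median was 162 TPM for the cytosolic and 15.6 TPM for the mitochondrial genes. In the mitochondrial group Lars2 averaged 101 TPM, Yars2 58.0 TPM and Tars2 46.8 TPM, while Mars2 (3.98 TPM) and Wars2 (2.65 TPM) were lowest. The cytosolic genes together took 0.367% and 0.378% of all TPM with EtOH against 0.370% and 0.430% with OHT.

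None of the 38 synthetase genes passed the test. With limma, adjusted over all genes, the adjusted p ranged from 0.277 to 0.997, and 0.0416% of all tested genes passed. At an unadjusted p under 0.05 stood 3 members, Lars2, Sars and Yars, each higher with OHT, and no member that was lower. Over all tested genes such p-values came with 6.02% higher and 4.46% lower. Across genes, the log2 difference between the replicates had an SD of 0.35 with OHT and 0.18 with EtOH. Leaving out 1 OHT library gave more calls: 10 members without OHT replicate 1 (2957 of all tested genes) and 8 without OHT replicate 2 (2478). In these fits the lone OHT library is taken to vary like the EtOH pair, whose spread was the smaller. The called share of the members was near that of all tested genes in each. Without OHT replicate 1 and 2 the log2 fold changes were 0.58 and 1.18 for Lars2, 0.44 and 0.20 for Sars, and 0.27 and 0.21 for Yars. The members' fold changes were small apart from Lars2, between -0.27 and 0.32 on the log2(TPM + 1) scale.

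**Figure D1:**
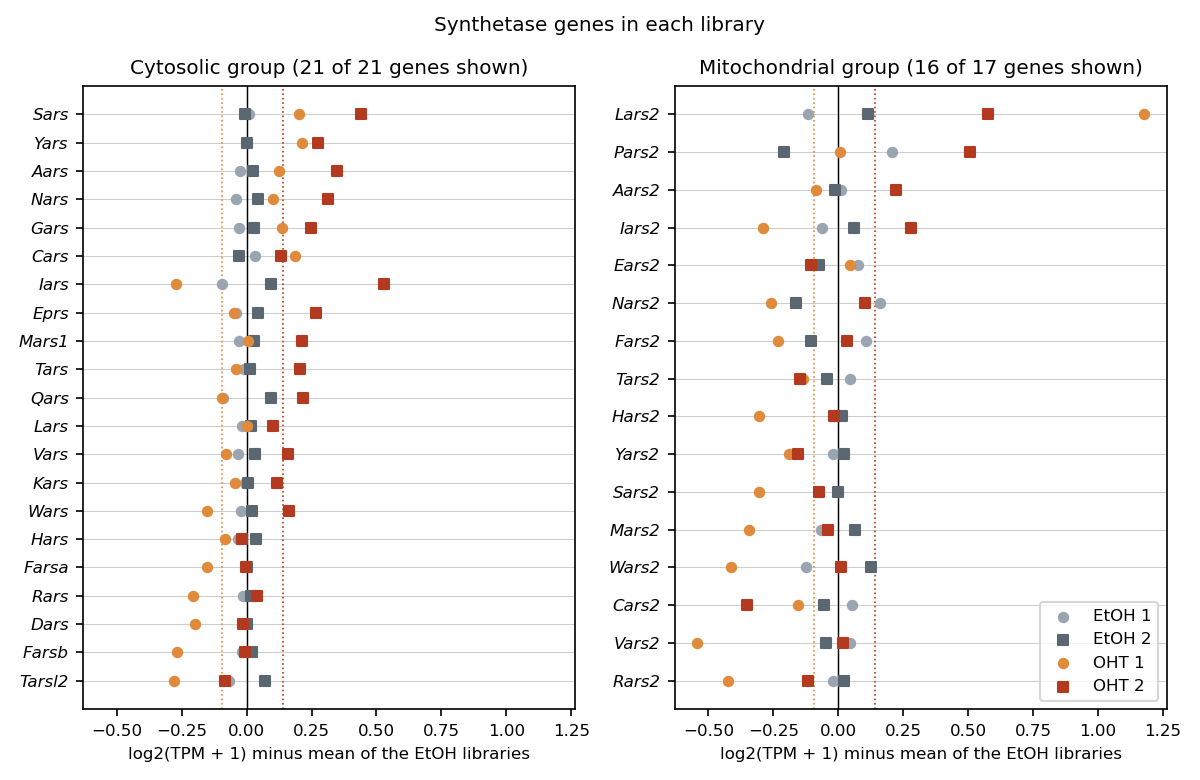
Each row is a gene (37 of the 38 are shown) and each point a library, plotted as log2(TPM + 1) minus the mean of the EtOH libraries. Dotted lines mark the median of all tested genes in OHT 1 (-0.09) and OHT 2 (0.14). The OHT points of Sars, Yars and Lars2 lie right of both EtOH points, and those of Yars2, Tars2 and Cars2 lie left of them.

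Sars, which encodes cytosolic seryl-tRNA synthetase, read 275 and 272 TPM with EtOH against 314 and 371 TPM with OHT. Each OHT library exceeded each EtOH library, with group means of 273 ± 2.01 and 343 ± 40.2 TPM (SD, n = 2 each). The log2 fold change was 0.32 (SE 0.11, limma adjusted p = 0.406). Yars, for tyrosyl-tRNA synthetase, read 121.0 and 121.0 TPM with EtOH against 140.3 and 147 TPM with OHT, again without overlap. Its log2 fold change was 0.24 (SE 0.09, limma adjusted p = 0.454). The OHT libraries of Yars stood closer together than those of Sars.

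Aars, for alanyl-tRNA synthetase, read 220 and 228 TPM with EtOH against 244 and 286 TPM with OHT. Its groups did not overlap, and the log2 fold change was 0.24 (SE 0.11, limma adjusted p = 0.520). Gars, whose glycyl-tRNA synthetase serves cytosol and mitochondria, read 374 and 389 TPM with EtOH against 419 and 453 TPM with OHT (log2 fold change 0.19, SE 0.09, limma adjusted p = 0.528). Nars, for asparaginyl-tRNA synthetase, read 317 and 337 TPM with EtOH against 351 and 406 TPM with OHT. Cars, for cysteinyl-tRNA synthetase, read 119 and 114 TPM with EtOH against 133 and 128 TPM with OHT. In these genes too each OHT library was above each EtOH library, and Cars was the one of them with its higher OHT value in replicate 1. The log2 fold changes of Aars and Cars were 0.07 and 0.10 with the length and GC trend of each library removed. The last 1326 bases of the annotated Aars transcript are also those of Exosc6, listed at 0 in all 4 libraries. Whether reads of that stretch were counted to Aars was not tested, so the value of Aars is uncertain.

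In 6 of the 21 cytosolic genes (28.6%) the OHT libraries were both above the EtOH pair, against 23.1% of all tested genes. In 3 of 21 (14.3%) they were both below, against 19.4% of all genes. These were Farsa, the alpha subunit gene of phenylalanyl-tRNA synthetase, Dars, for aspartyl-tRNA synthetase, and Tarsl2. Farsa read 152 and 152 TPM with EtOH against 136 and 151 TPM with OHT, so its second OHT library was nearly level with the controls. Dars read 188 and 188 TPM with EtOH against 164 and 186 TPM with OHT. Tarsl2 read 10.5 and 11.6 TPM with EtOH against 8.93 and 10.4 TPM with OHT. Log2 fold changes were -0.08 for Farsa, -0.11 for Dars (SE 0.10, limma adjusted p = 0.785) and -0.18 for Tarsl2 (SE 0.17, limma adjusted p = 0.782). Farsb, for the beta subunit of the phenylalanyl enzyme, read 205 and 210.0 TPM with EtOH against 172 and 206 TPM with OHT, an overlap. Its log2 fold change was -0.14 (SE 0.12, limma adjusted p = 0.745). As deposited, the share of non-overlapping cytosolic genes in either direction was thus near that of all genes. With the libraries scaled by median of ratios, 8 of 21 were above (38.1%, against 22.9% of all tested genes). Under that scaling 6 were below (28.6%, against 25.5%).

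Within the cytosolic group, the genes of the ATF4 set read higher than the rest. Of its 13 genes, 6 had both OHT libraries above both EtOH libraries and none below, and of the other 8, none lay above and 3 below, against 23.1% above and 19.4% below over all tested genes. The median log2 fold change was 0.13 in the set, from 0.00 for Wars to 0.32 for Sars, and -0.08 in the other 8, from -0.18 for Tarsl2 to 0.06 for Qars. Without OHT replicate 2 these medians were 0.00 and -0.18, and without OHT replicate 1 they were 0.25 and -0.01. All 13 fold changes of the set were above 0 as deposited, but Wars stood at -0.03 under median of ratios scaling, and Vars (-0.12) and Wars (-0.05) were below 0 with each library's length and GC trend removed, as were 5 of the 13 without OHT replicate 2: Iars (-0.27), Wars (-0.15), Vars (-0.08), Eprs (-0.05) and Tars (-0.04). Over all tested genes the median was 0.02. The set was fixed from general knowledge with other ATF4 results of these data known, and the difference between the set and the rest was not tested.

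The OHT libraries differed in level across the whole table, and the difference followed transcript length. Across genes, the log2 difference of OHT replicate 2 from OHT replicate 1 had a Pearson r of 0.53 with log2 transcript length. The same r was 0.27 for the EtOH libraries. The sets were therefore also read against all genes library by library, which does not remove a difference that follows length. Relative to the EtOH mean, all tested genes had a median of -0.09 in OHT replicate 1 and 0.14 in OHT replicate 2, and OHT replicate 2 exceeded OHT replicate 1 for 76.1% of genes. The ATF4 set lay above the median of all genes by 0.10 in replicate 1 and 0.11 in replicate 2. The other cytosolic genes lay at -0.08 and -0.15 relative to it. With the libraries scaled by median of ratios, 8 of 13 in the set were above and 1 below (22.9% and 25.5% of all tested genes), while of the other 8 none was above and 5 below. When each library’s length and GC trend was taken out, the medians were 0.08 in the set and -0.07 in the rest.

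**Figure D2:**
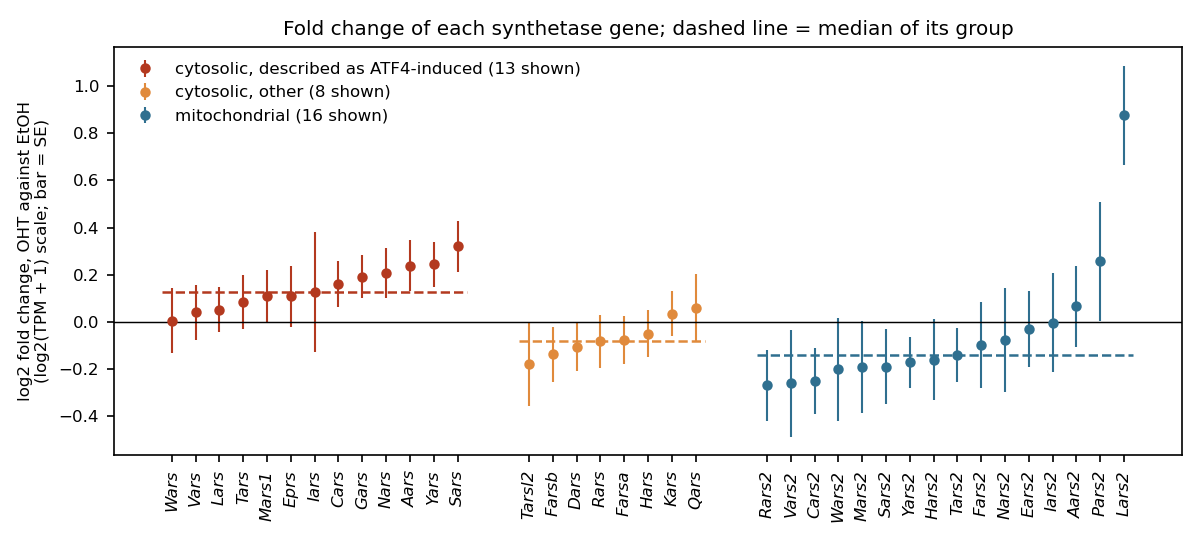
Log2 fold change of each gene (point) with its moderated SE (bar), OHT against EtOH on the log2(TPM + 1) scale, in 3 groups with their medians, over all members, as dashed lines. The medians are 0.13 for the cytosolic ATF4 set, -0.08 for the other cytosolic genes and -0.14 for the mitochondrial genes, with Lars2 apart at 0.88.

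The 5 members with a response element in the window lay on the higher side: Yars 0.24, Aars 0.24, Gars 0.19, Iars 0.13 and Tars 0.08 (log2 fold change). Their median was 0.19, and that of the 23 members in the promoter table without one was -0.10. With the length and GC trend removed these medians were 0.09 and -0.10, and without OHT replicate 2 Iars (-0.27) and Tars (-0.04) were below 0. All 5 belong to the cytosolic ATF4 set, while the 23 include mitochondrial genes, so this contrast and the one between those groups cannot be told apart. Among the 23 is Sars. Aars, Gars and Yars had both OHT libraries above both EtOH libraries. Tars, for threonyl-tRNA synthetase, read 142 and 144 TPM with EtOH against 139 and 164 TPM with OHT, so its groups overlapped.

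Iars, for isoleucyl-tRNA synthetase, had the widest spread of the cytosolic group. It read 142 and 162 TPM with EtOH against 125 and 219 TPM with OHT, so that OHT replicate 1 was the lowest and OHT replicate 2 the highest of the 4 libraries. The log2 fold change of 0.13 had an SE of 0.25 (limma adjusted p = 0.906). A stretch of 1656 bases of Iars is 96.0% identical to Gm4849, which the table does not list, so its reads may be shared. Iars2, the mitochondrial isoleucyl gene, showed the same order at lower levels, with 28.3 and 30.9 TPM with EtOH against 24.0 and 36.1 TPM with OHT. Iars2 shares 2034 identical bases at its end with Rab3gap2, which read 17.5 and 18.7 TPM with EtOH against 14.7 and 22.0 TPM with OHT, so its value is uncertain as well. Identical stretches of 115 to 250 bases also join Hars to Hars2, Cars2 to Naxd, Farsb to Sgpp2, Tarsl2 to Tm2d3 and Fars2 to Lyrm4. A Cars transcript of 539 bases shares 214 identical bases with Gm15580. Vars2 shares 130 with Gm20483, and Nars2 shares 284 with C230038L03Rik. Gm15580, Gm20483 and C230038L03Rik have no listed values, so their reads may be shared.

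Enzymes of the multi-synthetase complex differed little. The 8 genes Eprs, Iars, Lars, Qars, Mars1, Kars, Rars and Dars had a median log2 fold change of 0.06, with a range from -0.11 to 0.13. None had both OHT libraries above both EtOH libraries, and Dars alone had both below, against 23.1% and 19.4% of all tested genes. With median of ratios scaling 2 of the 8 were above and 2 below, 25% each (22.9% and 25.5% of all tested genes). Kars, whose lysyl-tRNA synthetase is also made for mitochondria, read 377 and 381 TPM with EtOH against 367 and 411 TPM with OHT (log2 fold change 0.03, SE 0.09, limma adjusted p = 0.934; -0.00 under median of ratios scaling). Eprs, which encodes the fused glutamyl-prolyl enzyme, read 171 and 182 TPM with EtOH against 170.4 and 213 TPM with OHT. The 13 cytosolic genes outside the complex had a median of 0.08 and included the 6 with both OHT libraries higher. Those 6 all belong to the ATF4 set, so this split is not separate from that of the ATF4 set. By catalytic fold the cytosolic medians were 0.06 for 9 class I and 0.03 for 11 class II genes, Eprs being of both.

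Taking the cytosolic group whole, the median log2 fold change was 0.06, and 15 of 21 genes had a higher mean with OHT. It depended on the OHT library: the median was -0.05 without OHT replicate 2 and 0.16 without OHT replicate 1. The cytosolic TPM values added up to 3666 and 3781 with EtOH against 3702 and 4297 with OHT. OHT replicate 1 lay between the EtOH libraries and OHT replicate 2 above both.

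Most mitochondrial synthetase genes stood slightly lower with OHT, 13 of 17 by their mean, and Lars2, Pars2, Aars2 and Iars2 had a higher mean. In 7 of the 17 (41.2%) both OHT libraries were below both EtOH libraries, against 19.4% of all tested genes. In 1 (5.88%), Lars2, both were above, against 23.1%. The median log2 fold change was -0.14. It was -0.15 without Lars2, -0.23 without OHT replicate 2 and -0.02 without OHT replicate 1. Against the median of all genes the group lay at -0.14 in OHT replicate 1 and -0.16 in OHT replicate 2. With median of ratios scaling the counts were again 7 below and 1 above, now against 25.5% and 22.9% of all tested genes, and the median was -0.18.

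Among the genes with both OHT libraries lower were Rars2, Cars2, Sars2, Yars2, Hars2 and Tars2. Rars2, for the mitochondrial arginyl enzyme, read 35.7 and 36.8 TPM with EtOH against 26.8 and 33.4 TPM with OHT (log2 fold change -0.27, SE 0.15, limma adjusted p = 0.605). Cars2, for the cysteinyl enzyme, read 35.5 and 32.9 TPM with EtOH against 30.6 and 26.6 TPM with OHT (-0.25, SE 0.14, limma adjusted p = 0.600). Its second OHT library was the lower one, unlike in most members. Yars2 (60.6 and 62.4 TPM with EtOH against 53.8 and 55.2 TPM with OHT) and Tars2 (50.6 and 47.6 TPM with EtOH against 44.6 and 44.2 TPM with OHT), for the tyrosyl and threonyl enzymes, had OHT libraries that lay close together. Sars2, for the seryl enzyme, read 19.2 and 19.1 TPM with EtOH against 15.3 and 18.1 TPM with OHT.

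Vars2, for the mitochondrial valyl enzyme, read 13.3 and 12.4 TPM with EtOH against 8.50 and 13.0 TPM with OHT. Its fold change of -0.26 (SE 0.23, limma adjusted p = 0.753) came from OHT replicate 1, since replicate 2 fell within the EtOH range. Pars2, the prolyl gene, read 6.93 and 4.95 TPM with EtOH against 5.90 and 8.76 TPM with OHT (0.26, SE 0.25, limma adjusted p = 0.788). Aars2, the alanyl gene, read 15.5 and 15.2 TPM with EtOH against 14.4 and 18.0 TPM with OHT (0.07, SE 0.17, limma adjusted p = 0.928; -0.06 with the length and GC trend removed). Wars2, the least abundant member, read 2.56 and 3.22 TPM with EtOH against 1.91 and 2.90 TPM with OHT (-0.20, SE 0.22, limma adjusted p = 0.808). In these 4 genes the groups overlapped. The remaining Ears2, Fars2, Iars2, Mars2 and Nars2 also overlapped, with fold changes from -0.19 to -0.00.

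Lars2, which encodes mitochondrial leucyl-tRNA synthetase (chromosome 9, 123366927 to 123462666, plus strand, GRCm38, protein-coding), had the largest difference of the 38. It read 64.6 and 76.0 TPM with EtOH against 160.0 and 105.0 TPM with OHT. Each OHT library exceeded each EtOH library, but they lay far apart. The higher was OHT replicate 1, the library with the lowest sum of the other mitochondrial synthetases. Group means were 70.3 ± 8.03 and 133 ± 38.9 TPM (SD, n = 2 each), a ratio of 1.88. The log2 fold change was 0.88 (SE 0.21, unadjusted p = 0.00580, limma adjusted p = 0.277). It passed without OHT replicate 1 (0.58, limma adjusted p = 0.0178) and without OHT replicate 2 (1.18, limma adjusted p = 0.00219), where the lone OHT library is taken to vary like the EtOH pair. It did not pass without EtOH replicate 1 (0.76, limma adjusted p = 0.619) or 2 (0.99, limma adjusted p = 0.0895).

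The annotated Lars2 transcript of 3894 bases has its stop codon ending at base 2908. In the untranslated part after it, bases 3278 to 3349 are 98.6% identical over 72 bases to a transcript of Gm15564. The table does not list Gm15564, so whether reads of that stretch were counted to Lars2 was not tested. The value of Lars2 is therefore uncertain.

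**Figure D3:**
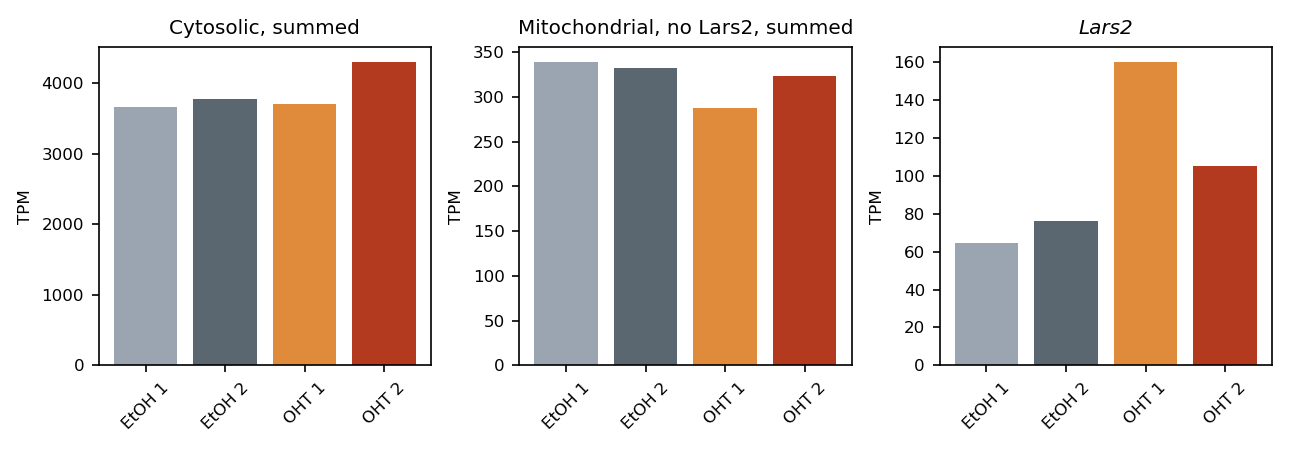
TPM in each of the 4 libraries (bars, axis from 0) for the cytosolic group summed, the mitochondrial group summed without Lars2, and Lars2. The mitochondrial sum without Lars2 is lower in both OHT libraries, Lars2 is higher in both, and the cytosolic sum is highest in OHT 2.

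Lars2 set the direction of the mitochondrial sum. With it, summed TPM was 404 and 409 with EtOH against 447 and 429 with OHT. Without it, the sum was 339 and 333 with EtOH against 287 and 324 with OHT. The ratio of the cytosolic sum to this reduced mitochondrial sum was 10.8 and 11.4 with EtOH against 12.9 and 13.3 with OHT, without overlap. With Lars2 included it was 9.08 and 9.25 with EtOH against 8.28 and 10.0 with OHT, and the groups overlapped. The smallest two-sided p of an exact permutation test on 2 against 2 libraries is 0.333, so none was run on the sums.

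Ratios of the cytosolic to the mitochondrial gene for the same amino acid do not depend on the scaling of a library. There are 18 such pairs, with Eprs and Fars2 each used in 2. With EtOH the ratio ranged from 1.97 for tyrosine to 55.3 for asparagine. In 9 pairs both OHT ratios were above both EtOH ratios, in 1 both were below, and 8 overlapped. No background for such pairs was computed, so whether 9 of 18 is more than other gene pairs give was not tested. For serine (Sars to Sars2) the ratio was 14.3 and 14.2 with EtOH against 20.5 and 20.4 with OHT. The OHT libraries, which differed in each gene alone, were nearly equal in the ratio.

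For tyrosine (Yars to Yars2) the ratio was 2.00 and 1.94 with EtOH against 2.61 and 2.66 with OHT. For cysteine (Cars to Cars2) it was 3.34 and 3.46 with EtOH against 4.33 and 4.80 with OHT. For arginine (Rars to Rars2) it was 5.48 and 5.43 with EtOH against 6.39 and 6.09 with OHT, although Rars itself overlapped. Alanine, methionine, threonine, valine and tryptophan were the other 5 higher pairs. For tryptophan (Wars to Wars2) the groups barely separated, with 26.78 and 21.86 with EtOH against 32.69 and 26.81 with OHT. The pair that was lower was leucine (Lars to Lars2), with 2.45 and 2.14 with EtOH and 1.00 and 1.64 with OHT. Lars itself was nearly level, at 158 and 162 TPM with EtOH against 160.4 and 172 TPM with OHT.

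**Figure D4:**
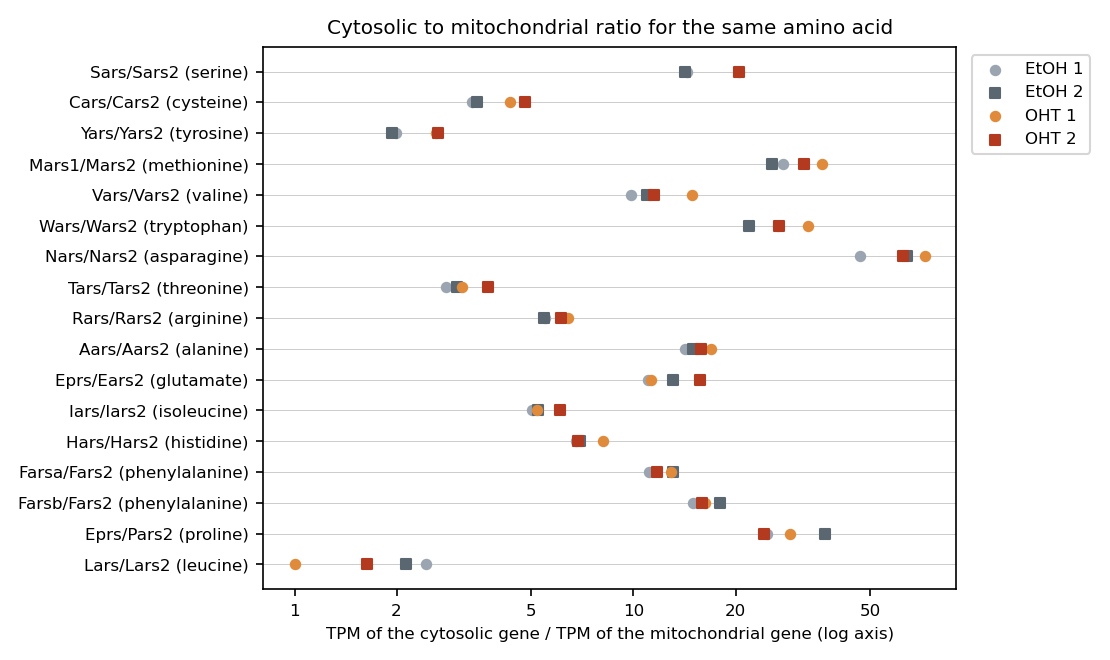
Ratio of cytosolic to mitochondrial TPM (log axis) for 17 of the 18 pairs, 1 point per library. Serine, tyrosine and cysteine show both OHT points to the right of both EtOH points, and leucine shows them to the left.

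None of the partner genes of the synthetases passed. Of 21 genes listed (complex scaffolds, editing, mitochondrial amidation and formylation, the selenocysteine pathway, tRNA end addition and export, and elongation factors), all 21 were tested. The OHT pair was wholly above the EtOH pair in 4 and wholly below it in 9, against 23.1% and 19.4% of all tested genes, and the median log2 fold change was -0.07. Among the lower 9 were scaffold genes of the multi-synthetase complex, Aimp2 (104 and 100.4 TPM with EtOH against 92.8 and 90.4 TPM with OHT) and Eef1e1 (72.1 and 70.2 TPM with EtOH against 60.4 and 60.6 TPM with OHT). Trnt1, which adds the CCA end to transfer RNAs, was the one partner with an unadjusted p under 0.05, at 103 and 112 TPM with EtOH against 86.0 and 88.9 TPM with OHT (-0.29, SE 0.10, limma adjusted p = 0.423). Tufm, the mitochondrial elongation factor that delivers charged transfer RNAs, read 143 and 140.4 TPM with EtOH against 119.8 and 124 TPM with OHT. The 4 higher partners were Dtd2, Gatb, Sephs2 and Eef1a1. Eef1a1, also an elongation factor gene, read 11558 and 11638.5 TPM with EtOH against 12521.9 and 12926.9 TPM with OHT.

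Other ATF4 pathway genes are given for comparison, and the difference from the synthetases was not tested. Of 14 listed, 13 were tested, and in 12 of them the OHT pair was wholly above the EtOH pair, against 23.1% of all tested genes. Their median log2 fold change was 0.49, and none passed, with 9 higher at an unadjusted p under 0.05, against 6.02% of all tested genes. Asns, the asparagine synthetase of amino acid metabolism, read 254 and 255 TPM with EtOH against 344 and 373 TPM with OHT. The smallest fold change in that list, 0.12 for Slc3a2, was below that of Sars, Yars, Aars, Nars, Gars, Cars and Iars, of which Iars overlapped. It was above that of Eprs, Mars1, Tars, Lars, Vars and Wars, the rest of the synthetase ATF4 set. Each synthetase gene of that set was below the list median of 0.49.

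Stem cell identity and other cell types were checked with marker lists. All 10 embryonic stem cell markers were tested, and their summed TPM was 9323 and 9228 with EtOH against 12104 and 10824 with OHT. Most of that difference was Dppa5a, at 4733 and 4612 TPM with EtOH against 7089 and 5623 TPM with OHT. In 6 of the 10 both OHT libraries were above both EtOH libraries, against 23.1% of all tested genes. These were Pou5f1, Nanog, Zfp42, Esrrb, Klf4 and Dppa5a, and none of the 10 passed. Utf1 alone was lower in both OHT libraries (log2 fold change -0.24, limma adjusted p = 0.442), and Sox2, Tfcp2l1 and Fgf4 overlapped. The 10 fibroblast and feeder markers summed to 6.45 to 7.65 TPM with EtOH against 8.93 to 13.2 TPM with OHT, most of it Thy1, with Postn and Twist2 at 0 in all 4 libraries. The 8 primitive endoderm markers summed to 21.4 to 23.2 TPM with EtOH against 17.8 to 25.5 TPM with OHT, most of it Lamb1. Of the 5 tested, Sox17 and Gata4 were higher in both OHT libraries, Sox7 was lower in both, and Lamb1 and Dab2 overlapped. The part of cell type makeup in the synthetase values was not tested.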

How the data were processed

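Poly(A)-selected RNA was sequenced from 4 libraries, 2 per group. The deposited values are TPM, which the authors made with Trim Galore and Salmon on GRCm38 (mm10), per the submitters' processing notes; the annotation release is not given in the sources used here. TPM keeps no depth, so depth is unknown and no counting interval was computed. The table also holds 2 columns that match no sample used here, and they were not used. Of the members, 1 is not reported here by name or drawn, and stays in the counts, medians and sums.

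Values were taken as log2(TPM + 1). The 12029 of 22266 genes that averaged 1 TPM or more were fitted with limma 3.58.1 in R 4.3.3 (group only, mean-variance trend, two-sided, residual df 2, prior df 4.01), with Benjamini-Hochberg adjustment over all of these genes (threshold 0.05). The fit was also run on simulated data, with planted changes larger than any of the members. That run says nothing of smaller changes or of differences that follow transcript length. Fold changes on this scale understate those of low genes. Members and gene lists were chosen with earlier results of these data known. Full values were to be given for members with an unadjusted p under 0.05, the 3 highest and 3 lowest fold changes of each group, the most and least abundant, and Gars and Kars; other members named with values were chosen after these were seen. Positions and transcript lengths come from GENCODE mouse release 21 (22213 identifiers matched without version), promoters from RefSeq. Shared sequence was sought with blastn 2.17.0 (95% identity, at least 60 bases). Alternatives were pseudocounts of 0.1 and 5, no filter or 5 TPM, median of ratios scaling, quantile normalization, no trend, a replicate block, removal of each library's length and GC trend, and leaving out each library; the block with the trend removed was added after seeing the data.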

Additional observations from a re-analysis of the deposited data

How the results depend on the processing

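No synthetase gene passed with pseudocounts of 0.1 or 5 TPM, no filter, a minimum of 5 TPM (which leaves out Mars2 and Wars2), median of ratios scaling, quantile normalization, no trend, or removal of the length and GC trend. Over all genes, 5 passed as reported, 0 without a filter (1838 at an unadjusted p under 0.05), 3 under median of ratios scaling, 3 under quantile normalization, 3 without a trend and 127 when the length and GC trend was removed. Fold changes of other sign were those of Kars (-0.0031) and Wars (-0.0329) under median of ratios scaling, Hars (0.0009) and Iars2 (0.0056) under quantile normalization, and Vars (-0.1200), Wars (-0.0487) and Aars2 (-0.0606) when the length and GC trend was removed, with or without a replicate block. The causes were not tested.

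The labels do not say that replicate numbers pair libraries, and there are 2 pairs; same-numbered libraries deviated with a correlation of 0.29 over genes. With the replicate block 474 genes passed, and 1043 with the block and the length and GC trend removed. In both fits 1 synthetase gene passed, Lars2 (limma adjusted p = 4.40e-08 and 0.0325).

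Leaving out 1 library gave 34 to 2957 calls over all genes and 0 to 10 among the synthetases, a cytosolic median of -0.0505 to 0.16 and a mitochondrial median of -0.23 to -0.0164. Without OHT replicate 1 the 10 were Sars, Yars, Aars, Nars, Gars, Iars, Eprs, Tars and Lars2, higher, and Cars2, lower. Without OHT replicate 2 the 8 were Sars, Yars and Lars2, higher, and Rars, Dars, Farsb, Vars2 and Rars2, lower. In a fit with 1 OHT library left, that library is taken to vary like the EtOH pair, so such calls are not comparable with the main fit. Fold changes crossed 0 for 15 members. The low end is without OHT replicate 2 and the high end without OHT replicate 1 (the other way round for Ears2): Iars -0.2740 to 0.5306, Eprs -0.0505 to 0.2676, Tars -0.0392 to 0.2044, Qars -0.0956 to 0.2162, Vars -0.0808 to 0.1599, Kars -0.0466 to 0.1156, Wars -0.1527 to 0.1614, Rars -0.2068 to 0.0398, Aars2 -0.0871 to 0.2206, Iars2 -0.2888 to 0.2814, Ears2 -0.1055 to 0.0467, Nars2 -0.2596 to 0.1040, Fars2 -0.2320 to 0.0336, Wars2 -0.4143 to 0.0098 and Vars2 -0.5428 to 0.0186. In all, 22 of the 38 kept their sign in each of the 14 alternatives that gave them a value. TPM keeps no depth, so the counting error behind low genes such as Wars2 and Mars2 is unknown.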
